A study of Homo sapiens with 12 samples.

Results

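SH-SY5Y cells in which SETD1A had been targeted by either of 2 siRNAs were compared, as 1 pooled condition, with cells that had received a control siRNA. All 12 of the 12 arrays of the series took part: 4 of siRNA s18789, 4 of siRNA s18790 and 4 of the control siRNA. SH-SY5Y is a cell line from a human neuroblastoma and resembles immature sympathetic neurons. Every group was transfected with a lipid reagent and harvested 96 hours later, so all groups share the transfection, and total RNA was read on single-colour Illumina bead arrays, 1 array per sample. Whether replicates came from different cultures is not stated in the labels, and the p-values then describe only how far these samples scatter, which may be technical.

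SETD1A is the catalytic subunit of a SET1 complex, which methylates lysine 4 of histone H3, a mark found at the promoters of active genes and enriched where the DNA is rich in CG dinucleotides. Rare damaging variants in the gene are associated with schizophrenia and with developmental disorders. An siRNA guides cleavage of the transcript it matches, but it also lowers other transcripts through short matches to its seed. For that reason 2 siRNAs of different sequence are commonly used against 1 target, and the pooled comparison asks which transcripts differ from control when both are averaged.

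For each probe the mean of the s18789 arrays and the mean of the s18790 arrays were given equal weight, and the control mean was subtracted from their average. Probes that reached a detection p under 0.01 on 4 or more arrays were taken as measured, 15922 in all, standing for 9833 named genes and, in 3268 cases, for unnamed targets. At that limit 390 probes were detected on exactly 4 arrays and 447 on exactly 3. All levels below are normalised log2 intensities of 1 probe per gene, and all differences are on the same log2 scale. A gene is termed called, higher or lower where limma's Benjamini-Hochberg adjusted p over all 15922 probes was under 0.05.

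Median intensities of the arrays were 63.1 to 70.2, and 29.1% to 33.6% of probes were detected. The lowest shares detected were on s18790 replicate 2 (29.1%) and control replicate 4 (29.3%). On the first principal component, which held 60.6% of the variance, s18790 replicate 2 (83.7) and control replicate 4 (26.8) stood apart from the other arrays of their groups. Of the neuroblastoma markers 8 of 9 on the array were detected on all 12 arrays, among them PHOX2A, DBH and CHGA, while TH was detected on none. Their summed intensity ranged from 33945 to 36421 with s18789, from 25550 to 35589 with s18790 and from 31490 to 36468 in controls. None of 8 endothelial or 7 glial and Schwann cell markers was detected on any array, PECAM1, VWF, SOX10 and S100B included, and CD14 was the only 1 of 9 blood cell markers detected on 4 or more arrays. EPCAM and MUC1 were the only 2 of 10 epithelial markers detected on 4 or more arrays, and the summed intensity of that list was 681 to 754 with s18789, 673 to 736 with s18790 and 698 to 754 in controls. Of the fibroblast markers 5 of 9 were detected on all arrays, with summed intensities of 3434 to 3699 with s18789, 2482 to 3563 with s18790 and 3181 to 3636 in controls. The part of these cell types in the results was not tested. In bulk RNA fewer cells of a type and less RNA per cell cannot be told apart.

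Among the 58 called genes chosen by the naming rule, whose calls were followed through every processing tried, those of ADGRG2, GAP43 and TMEM100 held throughout, and these 3 were higher with the siRNAs. GFRA3 and CORIN, both lower, were above background on every control array and on no siRNA array. The 250 bases before the annotated start of ADGRG2, GAP43, CORIN and GFRA3 are shown because SET1 complexes act at promoters, and because CG content differs widely among them. Sequences are from RefSeq (GRCh38.p14), 5′ to 3′ on the strand of the gene, and capitals mark every CG dinucleotide.
ADGRG2, chrX:19122469-19122718, minus strand: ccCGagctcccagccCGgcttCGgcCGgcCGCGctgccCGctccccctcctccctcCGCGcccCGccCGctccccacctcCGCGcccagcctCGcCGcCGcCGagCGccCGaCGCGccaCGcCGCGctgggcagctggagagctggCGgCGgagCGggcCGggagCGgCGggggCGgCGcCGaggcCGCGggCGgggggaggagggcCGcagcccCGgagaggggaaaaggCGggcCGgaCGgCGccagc
GAP43, chr3:115623260-115623509, plus strand: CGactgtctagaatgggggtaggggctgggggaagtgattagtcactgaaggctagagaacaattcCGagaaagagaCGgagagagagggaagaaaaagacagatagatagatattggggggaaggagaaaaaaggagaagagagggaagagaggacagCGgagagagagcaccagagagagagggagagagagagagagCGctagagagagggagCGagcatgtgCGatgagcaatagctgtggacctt
CORIN, chr4:47838068-47838317, minus strand: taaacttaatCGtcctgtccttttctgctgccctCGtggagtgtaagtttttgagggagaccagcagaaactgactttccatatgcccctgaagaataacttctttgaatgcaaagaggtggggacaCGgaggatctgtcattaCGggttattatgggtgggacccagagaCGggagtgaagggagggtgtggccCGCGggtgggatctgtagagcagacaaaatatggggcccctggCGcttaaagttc
GFRA3, chr5:138274622-138274871, minus strand: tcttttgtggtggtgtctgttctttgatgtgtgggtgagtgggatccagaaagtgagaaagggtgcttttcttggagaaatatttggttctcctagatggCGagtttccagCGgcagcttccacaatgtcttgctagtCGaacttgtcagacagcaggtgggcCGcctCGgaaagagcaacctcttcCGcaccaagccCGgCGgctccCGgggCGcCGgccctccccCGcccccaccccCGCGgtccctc
These stretches hold 42 CG dinucleotides for ADGRG2, 7 for GAP43, 8 for CORIN and 14 for GFRA3. The 2 genes that rose lie at opposite ends of this range, and the 2 that fell lie between them.

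SETD1A itself was lower on all 8 siRNA arrays than on any control array. Its only measured probe (ILMN_1714327) had 7.34, 7.22, 7.10 and 7.30 with s18789, 6.98, 7.45, 6.90 and 6.83 with s18790, and 7.52, 7.64, 7.50 and 8.03 in controls. The narrowest separation was between s18790 replicate 2 (7.45) and control replicate 3 (7.50). The pooled level was 69.2% of control (log2 difference -0.53 ± 0.13 SE, 95% interval -0.82 to -0.24). A two-sided exact permutation test, which ran through the 495 ways of choosing 4 arrays from 12, gave p = 0.00404, where 0.00202 is the smallest value it can give. Across all probes limma's adjusted p was 0.0672, so SETD1A was not called. Leaving out s18790 replicate 2 brought the adjusted p to 0.00740 with a difference of -0.59, and the other 11 fits with 1 array left out kept it above 0.05. Without control replicate 4, the other array that stands apart, the difference was -0.41 (limma adjusted p = 0.135).

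**Figure D1:**
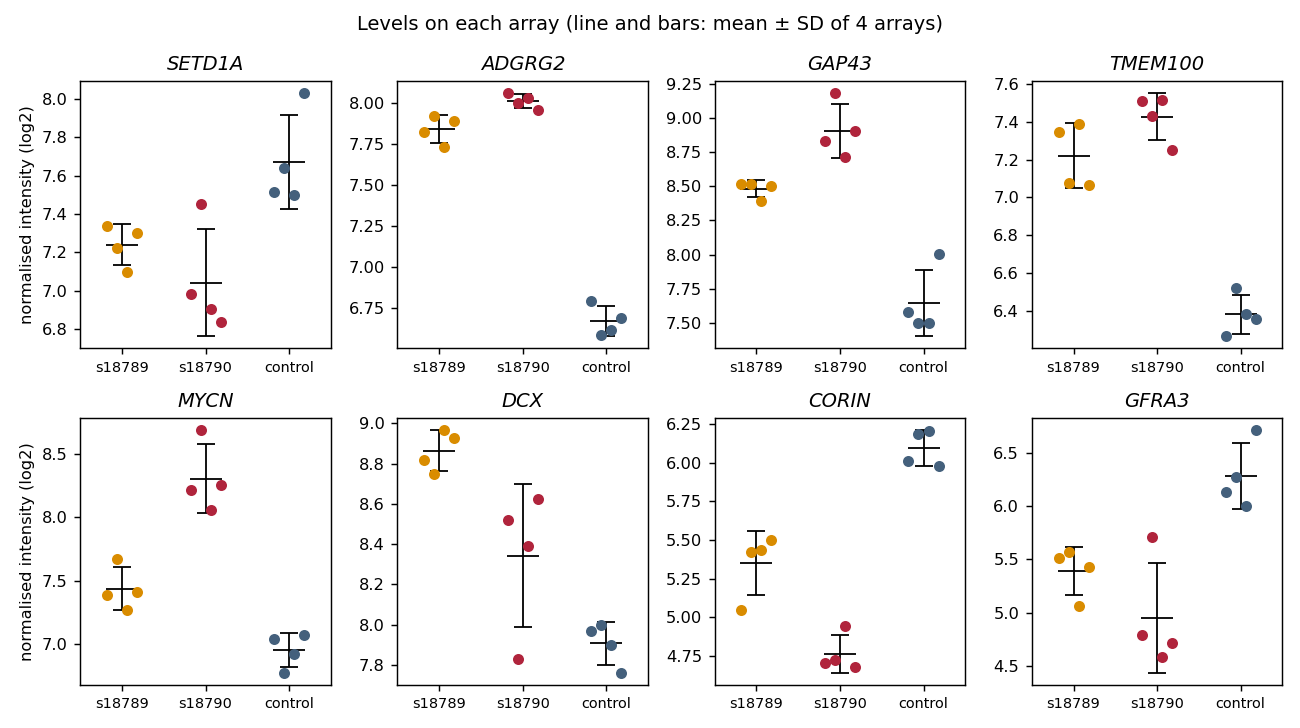
Normalised log2 intensity (y axis) of 8 genes on each array, with s18789, s18790 and control along the x axis of each panel. Points are arrays and the line and bars are the mean ± SD of 4 arrays. SETD1A, ADGRG2, GAP43, TMEM100, MYCN, CORIN and GFRA3 show no overlap of the 8 siRNA arrays with the controls, while DCX has 1 s18790 array at 7.83 within the control range. The y axes differ between panels and do not start at 0.

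Across the array, 82 genes were higher and 138 lower with the siRNAs, 0.834% and 1.4% of the 9833 genes measured, or 2.24% together. Among probes, 315 were called (111 higher and 204 lower, 1.98% of those tested), 47 of them without a gene symbol, and 2279 had an unadjusted p under 0.05. In fitted values the median called rise was 0.59 (0.35 to 1.45) and the median called fall was -0.54 (-0.35 to -1.12), with 6 rises and 2 falls past 2-fold. Of the called genes, 16 higher ones were above background on no control array and 2 lower ones on no siRNA array, so that only a lower bound of their fold can be given. With these genes at their bounds the medians were 0.53 and -0.54. Such probes passed the detection limit only through the arrays where they were high, so they had to differ, and their p-values carry that choice. With all 47321 probes tested, the call was lost for CDK18, GNG3, TTC9B and SLC35G6 among the named genes with a group in which no array detected them (adjusted p = 0.0655, 0.0578, 0.0923 and 0.0877). The call counts rest on the spread within each group. When the 8 siRNA arrays entered as 1 group, so that the difference between the siRNAs added to the error, 6 probes were called.

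Genes with all 8 siRNA arrays on 1 side of all 4 control arrays numbered 282 (2.87%), with 106 above (1.08%) and 176 below (1.79%). Of these 136 were also called (1.38% of genes), 45 higher and 91 lower. A looser reading, in which both siRNA means lie beyond every control array, held for 1408 genes (14.3%). Just inside the strict reading was SLX4IP, a called gene with a gap of 0.00132 between the groups, and just outside was ADD2, a called gene whose groups overlapped (a gap of -0.000671). ADGRG2 had the widest gap of any called gene, 0.939. Just inside the call threshold lay FAM72B (-0.44, adjusted p = 0.0491) and just outside TFIP11-DT (-0.48, 0.0507). SLX4IP, ADD2, FAM72B and TFIP11-DT were chosen after their values were seen.

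ADGRG2, an adhesion G protein-coupled receptor, was higher by 1.34 with s18790 and by 1.17 with s18789. Its levels (probe ILMN_2349071) were 7.83, 7.92, 7.73 and 7.89 with s18789, 8.06, 8.0, 8.03 and 7.96 with s18790, and 6.79, 6.59, 6.61 and 6.69 in controls. Every siRNA array stood at least 0.939 above every control. The pooled rise was 1.26 ± 0.08 SE (2.39-fold, limma adjusted p = 1.3e-05), and a second probe gave 1.21 ± 0.10 (adjusted p = 0.000163). The difference between the siRNAs was 0.17, with a 95% interval of -0.02 to 0.37.

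GAP43, a growth cone protein of extending axons, also rose with both siRNAs. It had 8.52, 8.52, 8.39 and 8.50 with s18789, 8.83, 9.18, 8.71 and 8.90 with s18790, and 7.58, 7.50, 7.50 and 8.0 in controls. The lowest siRNA array lay above the highest control, which was replicate 4, 1 of the arrays that stand apart. The pooled rise was 1.05 ± 0.12 SE (2.07-fold, limma adjusted p = 0.00134), and the siRNAs differed by 0.42 (0.13 to 0.71), which was not called (0.0941). TMEM100, a small transmembrane protein, had 7.35, 7.08, 7.39 and 7.07 with s18789, 7.51, 7.43, 7.52 and 7.25 with s18790, and 6.27, 6.52, 6.38 and 6.35 in controls. Its arrays separated as fully, with a pooled rise of 0.94 ± 0.10 SE (1.92-fold, adjusted p = 0.000907) and a difference between the siRNAs of 0.21 (-0.04 to 0.45).

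Of the other 12 largest fitted rises with all 8 arrays above control, several came from probes that no control array raised above background, so that only a lower bound of the fold is known. TESC, a calcium-binding protein, and CDK18, a cyclin-dependent kinase, were detected on all 8 siRNA arrays and on no control, and were at least 1.48-fold and 1.45-fold higher (limma adjusted p = 0.00914 and 0.0318). Only 2 other probes gained detection in this way, those of CEL, at least 1.27-fold higher, and OSBP2, at least 1.28-fold higher, both chosen after their values were seen. All of these passed the detection limit only through the siRNA arrays. With all probes tested the limma adjusted p was 0.0156 for TESC and 0.0655 for CDK18, which was then not called. NTS, the precursor of the neuropeptide neurotensin, had 5.89, 6.09, 6.28 and 5.97 with s18789, 5.64, 5.56, 5.70 and 5.90 with s18790, and 5.37, 5.03, 5.11 and 4.75 in controls. It was detected on 7 of the 8 siRNA arrays and was at least 1.16-fold higher (adjusted p = 0.00629). Among the 15 largest fitted rises only NTS and SCARNA8 had a lower mean with s18790 than with s18789, differences of -0.36 and -0.50 that were not called (adjusted p = 0.163 and 0.0699). SCARNA8, a small Cajal body RNA that guides modification of spliceosomal RNA, was detected on all 4 arrays of s18789, on 1 of s18790 and on no control. No fold bound above 1 could be given for it (fitted difference 0.75, limma adjusted p = 0.00982, and 0.0153 with all probes tested).

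MAGEC2 stood highest with s18790. This cancer-testis antigen, normally confined to germ cells, had 7.28, 7.64, 6.79 and 6.91 with s18790, 5.75, 5.58, 5.58 and 5.44 with s18789, and 4.85, 4.78, 4.83 and 5.21 in controls. All 8 siRNA arrays lay above the controls, but no control and only 2 arrays of s18789 were above background, so it was at least 1.63-fold higher (limma adjusted p = 0.000907). A second MAGEC2 probe was at 0.05 ± 0.17 and not called (adjusted p = 0.935). GTSF1, which in mouse germ cells is needed for silencing of transposons by small RNAs, was at least 1.15-fold higher (0.00344), and TMEFF2, a transmembrane protein with follistatin-like domains, at least 1.43-fold higher (0.000914). GTSF1 and TMEFF2 were detected on all 4 arrays of s18790, on 1 and 2 of s18789 and on no control. The called probes of MAGEC2, GTSF1 and TMEFF2 passed the detection limit only through siRNA arrays. Their limma adjusted p with all probes tested were 0.00166, 0.00655 and 0.00106.

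The remaining large rises were detected on every array of every group, except that NKD2 was detected on 1 of the 4 controls. GALNT16, an enzyme that starts O-linked glycans, rose by 0.83 ± 0.13 (limma adjusted p = 0.00717). DTNA, a component of the dystrophin-associated complex, rose by 0.74 ± 0.12 (0.00780), SLC35D3, of the nucleotide sugar transporter family, by 0.77 ± 0.11 (0.00587) and NKD2, an inhibitor of Wnt signalling, by 0.80 ± 0.14 (0.0149). SLC35D3 and NKD2 rose by 1.14 and 1.23 with s18790 and by 0.40 and 0.37 with s18789. Both were called apart between the siRNAs (limma adjusted p = 0.00956 and 0.0158). The pooled NKD2 call was lost without control replicate 1, 2 or 3, with an adjusted p of up to 0.0736, as was that of TESC without control replicate 1 (0.0534), that of SCARNA8 without control replicate 2 (0.0538) and that of CDK18 without any 1 of 7 arrays (up to 0.123).

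GFRA3, the co-receptor through which artemin signals to RET, was lower with both siRNAs. It had 5.51, 5.57, 5.06 and 5.43 with s18789, 4.79, 5.71, 4.58 and 4.71 with s18790, and 6.14, 6.28, 6.01 and 6.72 in controls. Detection was lost on all 8 siRNA arrays and present on all 4 controls, so it was at least 1.57-fold lower (limma adjusted p = 0.0152). CORIN, the serine protease that activates pro-atrial natriuretic peptide, showed the same loss of detection. Its levels were 5.05, 5.42, 5.44 and 5.50 with s18789, 4.71, 4.73, 4.94 and 4.68 with s18790, and 6.01, 6.19, 6.21 and 5.98 in controls. It was at least 1.38-fold lower (adjusted p = 0.000907), and with no array of either siRNA above background the siRNAs cannot be compared. Both probes passed the detection limit only through the controls, where they are high. With all probes tested, free of that choice, the adjusted p was 0.0380 for GFRA3 and 0.000713 for CORIN. With a control array left out neither probe passed the detection limit, and in the other 8 fits with 1 array left out both stayed called.

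The other 13 largest falls were of genes with varied roles, and all but MSH5 and ARSD were detected on all 12 arrays. CFAP68, a cilium and flagellum protein, fell by 0.84 on the log2 scale (SE 0.12, limma adjusted p = 0.00392), with 8.10 to 8.29 with s18789, 7.64 to 8.16 with s18790 and 8.65 to 9.11 in controls. KLHL12, an adaptor of a cullin-3 ubiquitin ligase, fell by 0.78 (SE 0.09, 0.00197), and its second probe by 0.64 (0.00344). The first probe stood at -1.04 with s18790 and -0.52 with s18789, and the siRNAs were called apart (limma adjusted p = 0.0179). OSGEPL1, which modifies mitochondrial transfer RNA, fell by 0.90 (SE 0.15, 0.0105), and its second probe by 0.75 (0.00334). MSH5, a MutS homologue of meiotic recombination, fell by 0.81 on the fitted scale (0.00344) and was detected on 2 arrays of s18789, none of s18790 and all 4 controls.

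Among the rest were GTF2H5, the smallest subunit of the repair and transcription factor TFIIH, which fell by 0.74 (SE 0.09, limma adjusted p = 0.00259), and UVSSA, a factor of transcription-coupled DNA repair, which fell by 0.72 (0.0162). NUDT7, a peroxisomal hydrolase of coenzyme A, fell by 0.71 (0.00150), PLGRKT, a plasminogen receptor, by 0.71 (0.00279) and SNORD16, a small nucleolar RNA, by 0.73 (0.00430). GTF2H5, NUDT7, PLGRKT and SNORD16 were called apart between the siRNAs (limma adjusted p = 0.0245, 0.00127, 0.00242 and 0.0473). Against control they stood at -0.99, -1.09, -1.10 and -0.96 with s18790, and at -0.49, -0.32, -0.33 and -0.50 with s18789. ARSD, a sulfatase detected on 11 of the 12 arrays, fell by 0.79 (0.0244), TMEM256 by 0.72 (0.0140) and TYMSOS, transcribed opposite TYMS, by 0.72 (0.0253). The calls of OSGEPL1 and TMEM256 were lost without control replicate 1, 2 or 3, that of UVSSA without control replicate 2 or 3, and those of ARSD and TYMSOS without 8 and 7 arrays in turn. Their highest adjusted p in those fits were 0.0562, 0.0614, 0.0762, 0.0869 and 0.0917.

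SLC50A1, a sugar transporter, had the smallest difference between the siRNAs of the 15 largest falls. It had 8.03, 8.14, 7.78 and 7.67 with s18789, 7.77, 8.28, 7.87 and 7.69 with s18790, and 8.56, 8.50, 8.64 and 8.75 in controls. The groups did not overlap, the pooled fall was 0.71 (SE 0.13, limma adjusted p = 0.0129), and the siRNAs differed by -0.00 (-0.32 to 0.31). Its second probe fell less, at -0.40 ± 0.15, and was not called (0.237). The call of the first was lost without control replicate 1 or 3 (up to 0.0566).

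**Figure D2:**
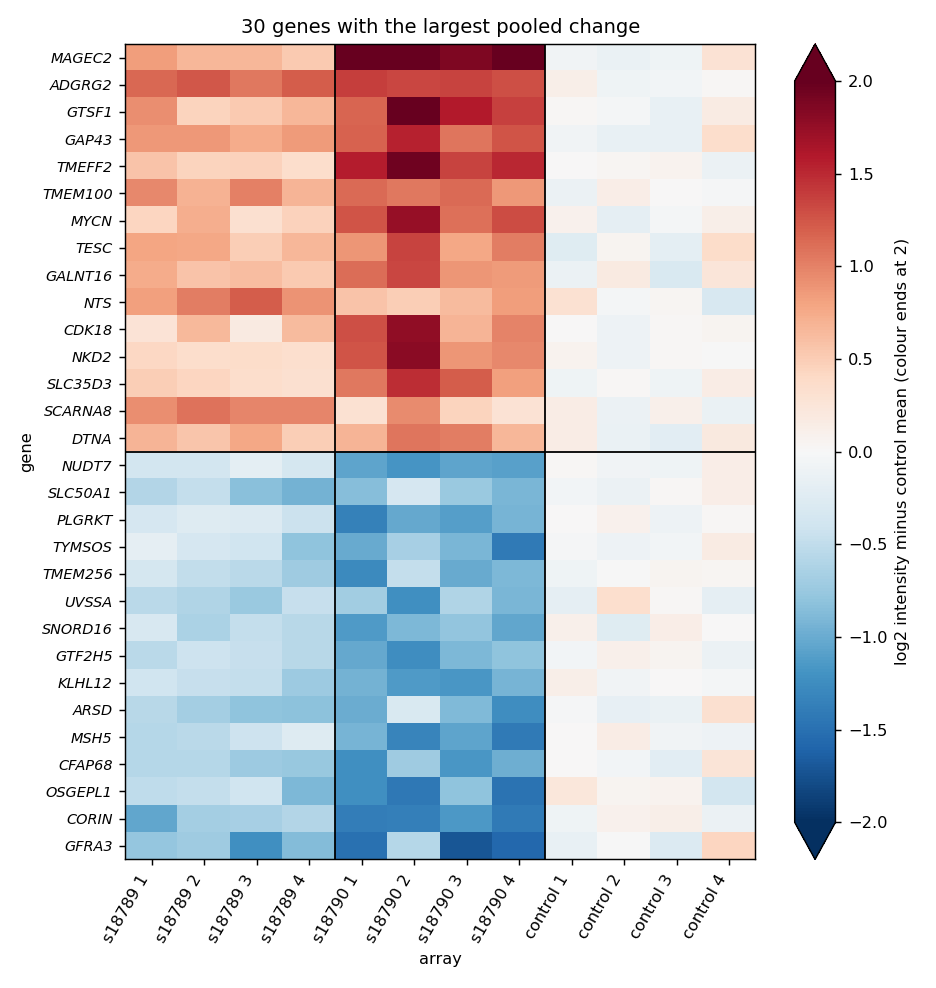
Log2 intensity minus the mean of the 4 controls (colour, with a scale that ends at 2) for the 15 largest rises and 15 largest falls among called genes with all 8 siRNA arrays beyond the controls. Columns are the arrays of s18789, s18790 and control. Blocks of 1 colour span both siRNAs in every row, deeper in the s18790 columns for MAGEC2 and TMEFF2, and paler there for NTS and SCARNA8; the genes were picked for this separation.

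The siRNAs did not contribute equally. The difference s18790 minus s18789 holds no control level, but the control arrays enter its test through the shared estimate of spread. That test called 499 of the 9833 genes (5.07%). Among the 220 genes called in the pooled comparison it called 103 (46.8%), 37 of the 82 higher genes and 66 of the 138 lower ones. The change was larger with s18790 in 36 of those 37 and in all 66. These counts include GNG3 and TTC9B, which passed the detection limit only through the s18790 arrays, and CORIN, above background with neither siRNA. For such genes the call is no test of a difference between the siRNAs. Of all 220 genes, called apart or not, the 95% interval of the difference lay within 1.5-fold for 27 higher and 42 lower genes. For the others a difference of that size was not excluded at 4 arrays a group.

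Set beside the pooled result, s18789 alone called 10 genes (0.102%) and s18790 alone 969 (9.85%), both against the same controls. Of the 82 higher genes 76 were called with s18790 alone and 7 with s18789 alone, and of the 138 lower ones 135 and 2. The median deviation of the 82 higher genes from the control mean was 0.36 to 0.53 over the s18789 arrays, 0.56 to 0.95 over the s18790 arrays and -0.05 to 0.09 over the controls. For the 138 lower genes it was -0.40 to -0.35, -0.77 to -0.59 and -0.03 to 0.04. Both siRNAs therefore lay on the same side for these sets, which were chosen on these arrays, with the s18789 arrays nearer to the controls.

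STMN4 differed most between the siRNAs among the higher genes. This stathmin, which regulates microtubules in neurons, had 7.79, 8.21, 7.93 and 8.10 with s18790, 6.40, 6.39, 6.48 and 6.20 with s18789, and 6.0, 6.22, 5.50 and 6.37 in controls. The s18789 arrays overlapped the controls and the s18790 arrays stood clear of both. The pooled rise of 1.17 ± 0.15 (limma adjusted p = 0.00255) is thus a mean of 1.98 with s18790 and 0.35 with s18789, which differed by 1.64 (interval 1.27 to 2.0, adjusted p = 0.000675). CBLN2, a secreted synapse organiser, rose by 0.78 ± 0.10 (0.00244) and differed by 1.15 between the siRNAs (0.000449), with 9.61 to 9.80 with s18790, 8.52 to 8.66 with s18789 and 8.10 to 8.60 in controls. GNG3, a neuronal G protein gamma subunit, and TTC9B were detected on all 4 arrays of s18790 and on no others. They passed the detection limit only through those arrays, so no test between the siRNAs is given, and with all probes tested neither pooled call held (0.0578 and 0.0923). Leaving out any array in the 8 fits that kept the GNG3 probe, or any 1 of 7 in the 8 that kept TTC9B, ended the pooled call, with an adjusted p of up to 0.149 and 0.165.

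YAP1 differed most among the lower genes. This coactivator of the Hippo pathway had 5.57, 5.25, 5.99 and 5.31 with s18790, 6.64, 6.50, 6.42 and 6.53 with s18789, and 6.65, 6.64, 6.77 and 6.54 in controls. Only the s18790 arrays stood clear of the controls, with 1 of the 4 above background, and the siRNAs differed by -0.99 (interval -1.31 to -0.68, limma adjusted p = 0.00336). SLC35B4, a nucleotide sugar transporter, TMEM209, a nuclear envelope protein, PIGK, a subunit of the enzyme that attaches glycolipid anchors, and CIAO2A, of iron-sulfur cluster assembly, were lower with s18790 than with s18789 by differences of -0.95, -0.94, -0.88 and -0.87 (adjusted p = 0.0135, 0.00263, 0.00927 and 0.000819). Their differences from control with s18790 were -1.22, -1.13, -1.18 and -0.95, and with s18789 -0.27, -0.19, -0.30 and -0.08. A second CIAO2A probe was at -0.64 with s18790 and 0.07 with s18789. Its pooled difference of -0.28 ± 0.12 was not called (limma adjusted p = 0.309). The pooled call of SLC35B4 was lost without any 1 of 6 arrays (up to 0.121), and those of TMEM209 and PIGK without control replicate 1, 2 or 3 (up to 0.0608 and 0.0727).

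A few genes were called in the pooled comparison and with neither siRNA alone, 3 higher and 3 lower. SCARNA18, a small Cajal body RNA, rose by 0.69 ± 0.14 (limma adjusted p = 0.0298), MGST1, a membrane glutathione transferase, by 0.53 ± 0.11 (0.0352) and SMAP1, a regulator of ARF GTPases, by 0.48 ± 0.10 (0.0342). SLC35G6, detected on all 4 controls and 2 siRNA arrays, fell by 0.61 on the fitted scale (SE 0.14, 0.0479), PSME1, a proteasome activator subunit, by 0.40 (SE 0.09, 0.0487) and C5orf15 by 0.40 (SE 0.09, 0.0408). The siRNAs differed by 0.07 for PSME1 (-0.17 to 0.30) and by -0.22 for SMAP1 (-0.48 to 0.04). A second SMAP1 probe was at 0.34 ± 0.12 and not called (limma adjusted p = 0.207). Leaving out any 1 of 8 to 11 arrays, depending on the gene and with all 4 controls among them, ended the call of each of these 6 genes, with adjusted p of up to 0.123 to 0.172.

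**Figure D3:**
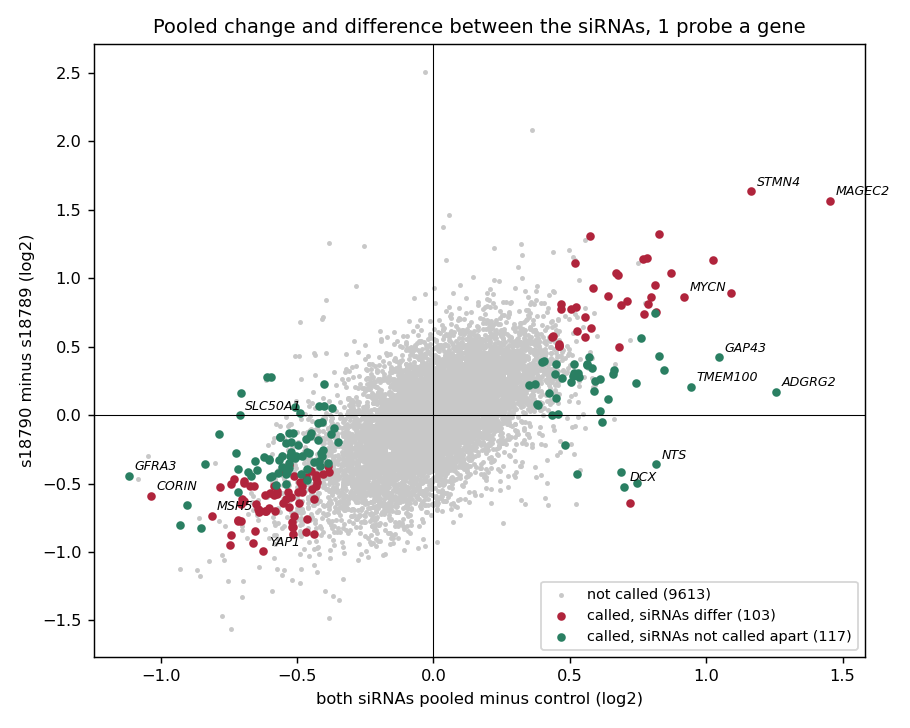
Each point is a gene, with its pooled difference from control on the x axis (log2) and s18790 minus s18789 on the y axis (log2). Red points (103) are called in both tests and green points (117) in the pooled one only. ADGRG2 (0.17), TMEM100 (0.21) and SLC50A1 lie near the horizontal line, and STMN4 (1.64) and YAP1 (-0.99) far from it.

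The other subunits of the H3K4 methyltransferase complexes did not pass the test. Of 18 measured members of the SET1 and MLL complexes, SETD1A among them, 0 were higher and 0 lower, against 0.834% and 1.4% of all genes by limma's adjusted p, and 2 above and 4 below control had an unadjusted p under 0.05, which 8.07% and 7.86% of all genes had. Their median difference was 0.01, as over all genes. SETD1B, the closest paralogue, differed by 0.16, and KMT2B, a further H3K4 methyltransferase, had the largest positive value, 0.35 ± 0.15 (adjusted p = 0.292). The opposing demethylases and their partners, 9 genes with KDM1A and KDM5B, also gave 0 calls, with a median of -0.05 and 2 above and 0 below control at an unadjusted p under 0.05. Of 9 genes in which rare coding variants are associated with schizophrenia, SETD1A included, 0 were called, while 0 above and 2 below control had an unadjusted p under 0.05. CACNA1G, a calcium channel, had the next lowest value after SETD1A, -0.49 ± 0.16 (0.149).

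Genes of neurite outgrowth and the neuronal cytoskeleton were higher in 4 of 30 cases and lower in 0, against 0.834% and 1.4% of all genes. These were STMN4, GAP43, DCX and BASP1, and the list's median was 0.14, with 26 of 30 members above 0, against a median of 0.01 over all genes. By siRNA the list's median was 0.25 with s18790 and 0.05 with s18789. DCX, which binds microtubules in migrating neurons, had 8.82, 8.75, 8.97 and 8.93 with s18789, 8.52, 7.83, 8.39 and 8.63 with s18790, and 7.97, 8.0, 7.90 and 7.76 in controls. Only s18790 replicate 2 fell within the control range, and the pooled rise was 0.70 ± 0.13 (limma adjusted p = 0.0190). DCX was called with s18789 (0.96) and not with s18790 (0.44, 0.0985), although the siRNAs themselves were not called apart (-0.52, 0.0730). Without any 1 of the 4 controls its call was lost (up to 0.0700). BASP1, a growth cone protein like GAP43, rose by 0.46 ± 0.09 (0.0244) and lost its call without any 1 of 7 arrays (up to 0.110). Its rise was 0.72 with s18790 and 0.20 with s18789, which were called apart (limma adjusted p = 0.0179). Common neuronal cytoskeleton genes were not called: TUBB3 differed by 0.25, MAP2 by 0.23 and STMN2 by -0.06, which were chosen after their values were seen.

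The synaptic and axon guidance lists held 1 call together, which is near the 2.24% of all genes and no result about these lists. Of 21 synaptic vesicle genes 0 were called by limma's adjusted p. An unadjusted p under 0.05 was reached by 5 above and 0 below control, against 8.07% and 7.86% of all genes. The list's median was 0.11, which was 0.22 without control replicate 4. SLC18A3, the vesicular acetylcholine transporter, had 6.53 to 7.87 with s18790 against 5.71 to 6.04 with s18789 and 5.74 to 6.24 in controls, a difference between the siRNAs of 1.28 (limma adjusted p = 0.0115). CBLN2 was the only 1 of 14 postsynaptic and adhesion genes called. Of 19 axon guidance genes 0 were called, with 2 above and 1 below control at an unadjusted p under 0.05.

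**Figure D4:**
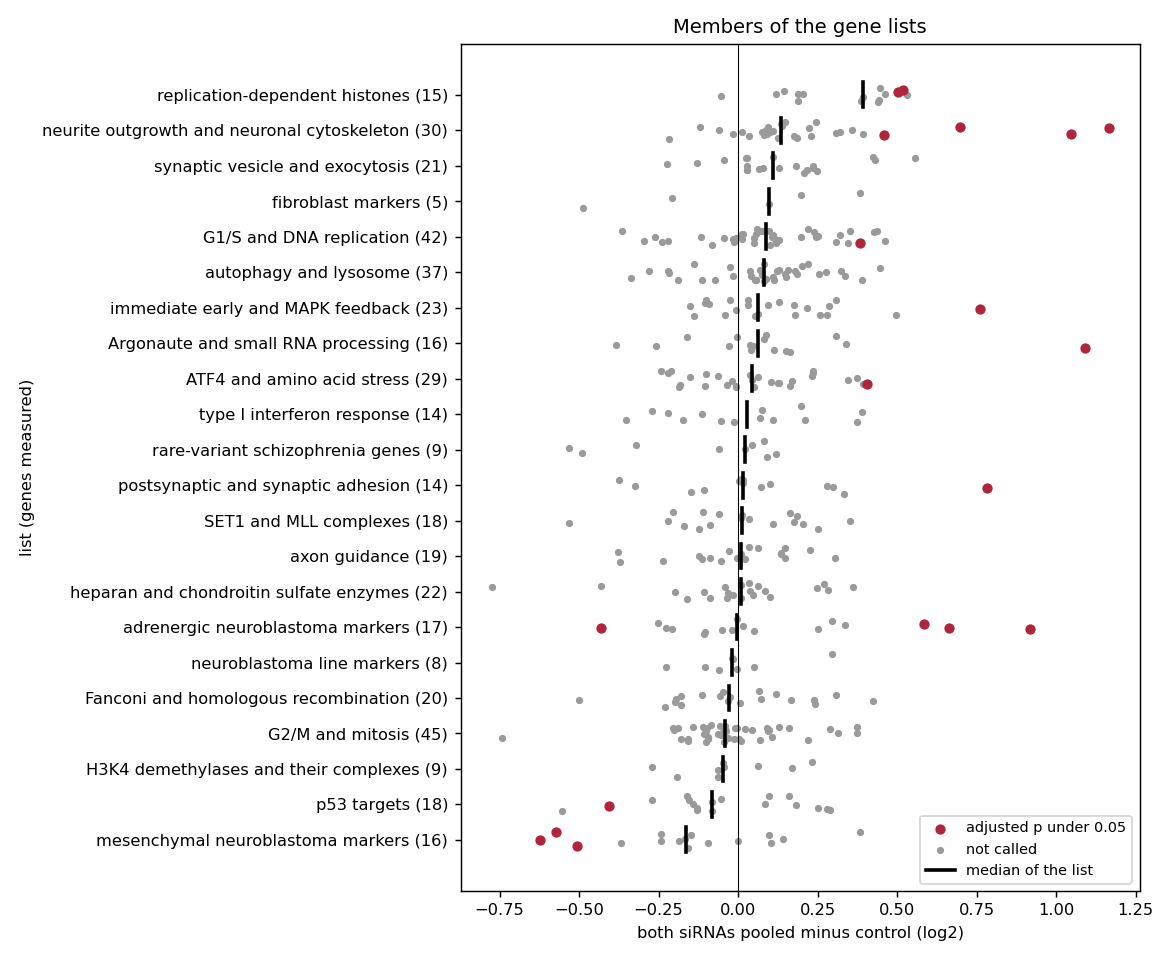
Pooled difference from control (x axis, log2) of every measured gene in the lists with at least 5 measured members, 1 row per list with the number of genes in brackets. Red points are called, grey points are not, and the black bar is the list's median. Medians lie between -0.16 for mesenchymal markers and 0.39 for histones, and most lists hold 0 or 1 called gene.

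Markers of the adrenergic state of neuroblastoma, the sympathetic-like state SH-SY5Y is usually placed in, were higher in 3 of 17 cases and lower in 1, against 0.834% and 1.4% of all genes, with a median of -0.00. MYCN, the transcription factor amplified in many neuroblastomas, had 8.21, 8.69, 8.06 and 8.25 with s18790, 7.39, 7.67, 7.27 and 7.41 with s18789, and 7.04, 6.77, 6.92 and 7.07 in controls. All 8 siRNA arrays exceeded the controls, more so with s18790 (difference 0.87, limma adjusted p = 0.00670), and the pooled rise was 0.92 ± 0.12 (0.00344). DLK1, a Notch-related surface protein of chromaffin and progenitor cells, rose by 0.66 ± 0.10 (0.00756), with 11.29 to 11.65 with s18789, 11.57 to 11.98 with s18790 and 10.93 to 11.08 in controls, and a second probe rose by 0.72 (0.0324). HAND1, a transcription factor of the sympathetic lineage, rose by 0.58 ± 0.10 (0.0122), with s18790 at 11.42 to 11.83, s18789 at 10.61 to 10.93 and controls at 10.49 to 10.64. CHGB, a protein of secretory granules, fell by 0.43 (SE 0.09, 0.0244), with all 8 siRNA arrays below control. It stood at -0.69 with s18790 and -0.17 with s18789, and the siRNAs were called apart (limma adjusted p = 0.0140). Without 3 of the controls in turn the call of HAND1 was lost (up to 0.0645), as was that of CHGB without 5 arrays in turn (up to 0.109).

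Markers of the opposite, mesenchymal state were lower in 3 of 16 cases and higher in 0, against 1.4% and 0.834% of all genes, with a median of -0.16 and 5 of 16 members above 0. COL1A1, a fibrillar collagen, was among those above 0, at 0.38 ± 0.12, and was not called (limma adjusted p = 0.136). The lower members were YAP1 (-0.62 ± 0.13, limma adjusted p = 0.0267), COL3A1, a further fibrillar collagen (-0.57 ± 0.12, 0.0354), and SNAI2, a repressor of epithelial genes (-0.51 ± 0.09, 0.0140). YAP1 and COL3A1 stood at -1.12 and -0.86 with s18790 and at -0.13 and -0.28 with s18789. Both were called apart between the siRNAs (limma adjusted p = 0.00336 and 0.0439). SNAI2 had 6.95, 6.84, 6.93 and 7.0 with s18789, 7.04, 7.03, 7.15 and 6.74 with s18790, and 7.43, 7.43, 7.58 and 7.43 in controls. Its siRNA arrays all lay below the controls and did not differ by siRNA beyond their spread (0.06, -0.17 to 0.29). A second SNAI2 probe was at -0.28 ± 0.13 and not called (0.351). The 3 calls were lost without 3, 7 and 10 arrays in turn for SNAI2, YAP1 and COL3A1, each of control replicates 1 to 3 among them (up to 0.0671, 0.112 and 0.146).

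Replication-dependent histone genes had the highest median of the lists, 0.39, with 14 of 15 members above 0. Of the 15, 2 were called higher and 0 lower, against 0.834% and 1.4% of all genes. H2BC12 rose by 0.52 ± 0.11 (limma adjusted p = 0.0274) and H2BC5 by 0.50 ± 0.09 (0.0122), and a second probe of H2BC5 by 0.58 (0.00630). The second probe of H2BC12 was at 0.50 ± 0.17 and not called (0.193). Copies of these genes are nearly identical, so a probe may read several of them. H2BC12 had 10.86, 11.25, 11.07 and 11.03 with s18790, 10.15, 9.90, 9.73 and 9.96 with s18789, and 10.12, 9.82, 9.91 and 10.06 in controls. Only s18790 stood apart, by 1.11 from s18789 (0.000863), and H2BC5 likewise by 0.78 (0.00207). Without background correction the list's median was 0.24. The H2BC12 call was lost without any 1 of 6 arrays (up to 0.124) and that of H2BC5 without control replicate 1 or 3 (up to 0.0612).

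The lists of replication, mitosis and recombination genes held 1 call together, near the 2.24% of all genes. GINS3, of the replicative helicase, was the only 1 of 42 genes of G1/S and DNA replication called (0.38 ± 0.09, limma adjusted p = 0.0408). Of the 42, 5 had all 8 siRNA arrays above control, against 1.08% of all genes. At an unadjusted p under 0.05, 10 of the 42 were above and 2 below control, against 8.07% and 7.86% of all genes. The GINS3 call was lost without any 1 of 11 arrays (up to 0.157). Of 45 mitotic genes 0 were called, with 4 above and 0 below control at an unadjusted p under 0.05, and HMMR, a spindle protein, varied from 5.37 to 7.98 within s18790 alone. Of 20 Fanconi and recombination genes 0 were called, with 2 above and 0 below at an unadjusted p under 0.05. Among 18 targets of p53, XPC, which recognises DNA damage, was lower (-0.41 ± 0.08, 0.0206) and none was higher, and its call was lost without any 1 control (up to 0.0960).

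Stress and signalling lists held at most 1 call each, where 2.24% of all genes were called, so these counts set no list apart. JUN, an early response transcription factor, was the only 1 of 23 immediate early and MAPK feedback genes called, with 7.77, 7.47, 7.49 and 7.10 with s18789, 8.15, 8.38, 7.73 and 7.84 with s18790, and 6.91, 7.14, 6.73 and 7.14 in controls. The lowest s18789 array fell within the control range, and the pooled rise was 0.76 ± 0.15 (limma adjusted p = 0.0230), lost without any 1 of 6 arrays (up to 0.104). VLDLR, a lipoprotein receptor, was the only 1 of 29 genes of the ATF4 and amino acid response called (0.41 ± 0.09, 0.0409, lost without any 1 of 10 arrays, up to 0.167). Of 14 interferon response genes 0 were called, with 2 above and 2 below control at an unadjusted p under 0.05. Of 37 autophagy and lysosome genes 0 were called, with 7 above and 2 below. At that unadjusted limit 8.07% of all genes were above and 7.86% below. Among 16 genes of Argonaute and small RNA processing only GTSF1 was called. Of 22 enzymes of heparan and chondroitin sulfate 0 were called, with 2 above and 2 below at an unadjusted p under 0.05, although HS6ST2, a heparan sulfate sulfotransferase, stood at 6.06 to 7.20 with s18790, 8.09 to 8.42 with s18789 and 7.85 to 8.49 in controls. Its siRNAs differed by -1.47 (0.00381).

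CG content was also counted at all promoters in windows of 300 bases, 250 before and 50 after the annotated start. RefSeq sequences matched 8056 of the 9833 genes measured, 67 of the 82 higher and 119 of the 138 lower ones. The median was 24 CG for higher genes, 27 for lower genes and 27 for all genes measured. Windows with fewer than 10 CG made up 20.9% of those of higher genes (14 of 67), 6.72% of those of lower genes (8 of 119) and 9.42% of all measured. GAP43 (7), NTS and DCX (2 each) and GNG3 (6) were among the 14, while ADGRG2 had 50. The letters TATAAA, on either strand, were found in 7.46% of higher, 0.84% of lower and 5.04% of all measured windows. CCAAT was found in 38.8%, 30.3% and 37.6%, and GGGCGG in 68.7%, 73.1% and 71.2%. These shares are descriptions of the windows, and no test was made of them.

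**Figure D5:**
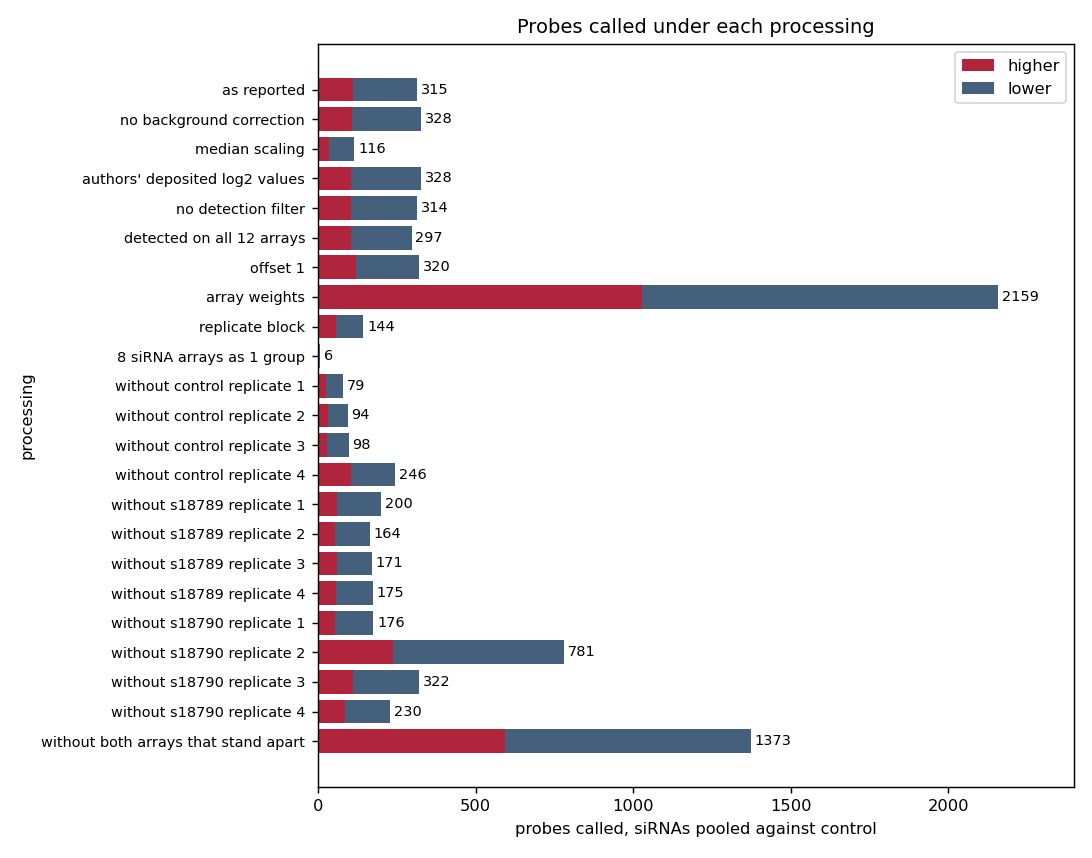
Number of probes called in the pooled comparison (x axis) under each processing (y axis), split into higher and lower. The count is 315 as reported, 79 to 98 when control replicate 1, 2 or 3 is left out, 781 without s18790 replicate 2, 1373 without both arrays that stand apart and 6 when the 8 siRNA arrays form 1 group.

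The pooled counts depended on single arrays. Without control replicate 1, 2 or 3 the count of called probes was 79, 94 or 98, without s18789 replicates 1 to 4 it was 200, 164, 171 and 175, and without s18790 replicate 1 it was 176. Without s18790 replicate 2 it was 781, of which 308 were among the 315, and without both arrays that stand apart it was 1373, which held 305 of them. Of the 58 named genes that were called, 24 kept the call in every fit with 1 array left out that measured their probe, and 20 lost it only when the siRNA arrays formed 1 group. ADGRG2, GAP43 and TMEM100 kept it in all 22 alternatives, with the highest adjusted p of 0.00122, 0.0324 and 0.00993.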

How the data were processed

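Total RNA of 12 samples was read on single-colour Illumina bead arrays, 1 array per sample. The mean bead intensity that the authors deposited per probe is on a linear scale and came from GenomeStudio, per the submitters' processing notes, and its values show no background subtraction or normalisation between arrays. Per the file headers, the authors also deposited a detection p-value for each probe and array. A second deposited table holds log2 values with an unstated transform, and it served as an alternative only. Chips were not analysed as batches, since no source used here says which chip held which array.

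In limma 3.58.1 (R 4.3.3) background was corrected by the normal-exponential model through the detection p-values, with an offset of 16, quantile normalisation and log2. Probes with a detection p under 0.01 on at least 4 of 12 arrays were kept. A linear model with 3 group means and 9 residual degrees of freedom (lmFit, contrasts.fit, eBayes) gave 4 contrasts, each adjusted by Benjamini-Hochberg over 15922 probes. Its error holds the spread within groups and not that between the siRNAs. The procedure was tested on simulated data, where it recovered 19 of 50 changes of 0.5 (38%) and 45 of 50 changes of 1 (90%) on the log2 scale, with 12 false calls. A gene that was not called may therefore still differ by about 0.5. The number of arrays limits the precision. Of 47321 probes, 30113 had 1 gene symbol, 8 had several and 17200 were unnamed here, and the current table of human genes changed 0 symbols. The probe with the highest mean stood for a gene. For a probe above background on no array of an arm (the 8 siRNA arrays or the 4 controls), the fold is a bound against, per array, its own level or the dimmest probe above background, whichever is higher. No pair of arrays held identical values.

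Same-numbered samples did not deviate together (6 of 12 pairs over 0.1, from -0.583 to 0.575), so the replicate numbers were not taken as pairs. The members and the 26 gene lists were chosen with earlier results of these data known. Named genes are SETD1A; among called genes with all 8 siRNA arrays beyond the controls the 15 largest rises and 15 largest falls; up to 5 each way called with neither siRNA alone; 5 each way with the largest difference between siRNAs; and per list up to 3 members with the largest change plus every called member where 5 or fewer. Alternatives were background, scaling, deposited values, filter, offset, array weights, replicate block, the siRNA arrays as 1 group, and leaving out arrays.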

Additional observations from a re-analysis of the deposited data

Results flagged for a closer look

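Among 110 named genes in 3 groups of 4 arrays, 330 gene and group pairs, 17 arrays lay far from the other 3 of their group, past the 95% limit of Dixon's ratio. Chance passes that limit in about 1 group in 20, so 17 of 330 is near the share that chance alone would give. Of the 17, 7 were control replicate 4 and 4 were s18790 replicate 2, the arrays that stand apart. On s18790 replicate 2 the values were 6.64 for SCARNA18, 9.60 for TK1 and 8.61 for GINS3, above the other arrays of the group, and 6.01 for HERC6, below them. On s18789 replicate 3 GAP43 was low at 8.39 and NUDT7 high at 7.50. On control replicate 4 MAGEC2 (5.21), GAP43 (8.0) and CENPM (7.90) were high, and SEMA3C (7.82), LUM (8.59), PIGK (7.42) and HMMR (7.30) were low, the last against 8.77 to 9.03 on the other controls. On control replicate 3 SNAI2 was high at 7.58 and PSME1 low at 10.66, and on control replicate 2 HAND1 (10.49) and GNG3 (5.38) were low.

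Between the siRNAs, 32 named genes had a limma adjusted p under 0.05, and their values are on the s18790 minus s18789 log2 scale. For CORIN, GNG3 and TTC9B among them this is no test of a difference, for the reasons given after the values. Higher with s18790 than with s18789 were STMN4 (1.64), MAGEC2 (1.57), TTC9B (1.32), GNG3 (1.31), SLC18A3 (1.28), CBLN2 (1.15), TMEFF2 (1.14), H2BC12 (1.11), HAND1 (0.93), GTSF1 (0.89), MYCN (0.87), NKD2 (0.86), H2BC5 (0.78), SLC35D3 (0.74), MUC1 (0.53), BASP1 (0.52) and AGO1 (0.52). Lower with s18790 than with s18789 were HS6ST2 (-1.47), YAP1 (-0.99), SLC35B4 (-0.95), TMEM209 (-0.94), PIGK (-0.88), CIAO2A (-0.87), PLGRKT (-0.78), NUDT7 (-0.77), MSH5 (-0.74), CORIN (-0.59), COL3A1 (-0.58), KLHL12 (-0.53), CHGB (-0.52), GTF2H5 (-0.50) and SNORD16 (-0.47). CORIN was above background with neither siRNA, GNG3 and TTC9B only with s18790 and MSH5 only with s18789, so these fitted values are not measured sizes, and the tests of GNG3 and TTC9B carry the choice of probes detected on 4 arrays. With s18789, GTSF1 was above background on 1 array and MAGEC2 and TMEFF2 on 2, as was YAP1 on 1 array of s18790. Their differences thus rest partly on values at background. The s18790 arrays alone brought GTSF1, MAGEC2 and TMEFF2 past the detection limit, so their tests carry that choice too. Neither the sequence of the siRNAs nor the part of off-target matches in these differences was tested.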

How the results depend on the processing

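The count of 315 called probes was 116 with median scaling, 144 with the replicate block, 6 (5 higher and 1 lower, against 111 and 204) with the 8 siRNA arrays as 1 group, 2159 with array weights and 1373 without both arrays that stand apart, a setting chosen after earlier results were known. Leaving out 1 array gave 79 to 781. It was 297 to 328 under the other 5 settings, with deposited log2 values at 328. The count with all 8 siRNA arrays beyond the controls (395 probes) was 251 with median scaling, 1412 without both arrays that stand apart, 2266 when only the group means had to lie beyond, and 419 to 1221 with 1 array left out, the highest without control replicate 4. Probes called between the siRNAs numbered 668, against 296 with the replicate block, 1577 with array weights, 1617 without both arrays and 205 to 1066 with 1 array left out. Their split was 373 higher and 295 lower, and it turned to 102 and 591 with median scaling, 752 and 825 with array weights, 393 and 532 without s18790 replicate 2 and 727 and 890 without both arrays. The split of the probes with all 8 arrays beyond the controls, 140 above and 255 below, turned to 628 and 593 without control replicate 4. SETD1A passed the threshold with array weights (-0.51), without both arrays (-0.47) and without s18790 replicate 2 (-0.59), and ranged from -0.41 to -0.59 with 1 array left out. Replicate numbers did not pair the samples (3 of 12 arrays correlated best with their own number). No named gene that was called changed direction. Named genes gave 1967 values on the same side of the threshold, 326 that lost the call and 81 that gained it. Most list medians stayed within a fixed log2 limit of their reported value, which was not set from the spread between replicates. Those that moved past it included histones (0.24 without background correction or with deposited values, 0.27 with array weights, against 0.39). Synaptic vesicle genes also did (0.22 without control replicate 4). With probes detected on all 12 arrays so did interferon genes (-0.11, against 0.03) and epithelial markers (0.14, against -0.10), where fewer genes were tested. The cause of the other shifts was not tested. Probes not above background in an arm give only a bound.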
